A study of Mus musculus with 48 samples.

Results

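The effect of the germ-free state on liver RNA at zeitgeber time 18 (ZT18), in the middle of the dark phase, was described from the 8 libraries labelled ZT18 among the 48 liver libraries of the series. They comprise 2 libraries from germ-free (GF) females, 2 from GF males, 2 from conventionally raised (convR) females and 2 from convR males. All mice were C57BL/6j animals aged 15 to 16 weeks with free access to food, and the labels name no allele or agent besides gut microbiome status. GF mice carry no gut microbes from birth, so the comparison is with a life-long state and not with a removal of microbes at that hour. The female and male libraries were counted in separate tables, so sex and table coincide, and the table was kept as a block. The labels do not state that libraries of a group came from separate animals, so p-values measure the spread between libraries.

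In nocturnal rodents the dark phase is the feeding and active phase, when the liver takes up nutrients and bile acids from the gut. Microbes deconjugate and modify bile acids and supply ligands for the nuclear receptors that control drug-metabolising enzymes. Linker histone H1 binds the DNA where it enters and leaves the nucleosome and compacts chromatin, while H1f0 is the variant typical of cells that no longer divide. Most other H1 genes lie in the large histone cluster on chromosome 13 with core histone genes, and their transcripts classically end in a stem-loop and not in a poly(A) tail. Libraries made from total RNA after ribosomal depletion, as here, can sample such transcripts.

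The linker histone genes Hist1h1c, Hist1h1d and Hist1h1e fell in GF livers at ZT18, and their GF effect at that time differed from its mean at the other 5 times. Their windows upstream of the RefSeq start (RefSeq names H1f2, H1f3 and H1f4, build GRCm38.p6) are shown because these 3 genes moved together. Each sequence is 250 bases, 5′ to 3′ on the gene's strand and ending at the base before the start. The Hist1h1d window lies inside the span of the counted gene given below, which begins further upstream than the RefSeq gene. The capitals mark the 2 runs of 8 or more bases that all 3 windows share, AACAAACACA, which contains the AAACACA letters of the H1 box, and ACCAATCA, which contains a CCAAT element.
Hist1h1c, chr13:23738557-23738806, plus strand: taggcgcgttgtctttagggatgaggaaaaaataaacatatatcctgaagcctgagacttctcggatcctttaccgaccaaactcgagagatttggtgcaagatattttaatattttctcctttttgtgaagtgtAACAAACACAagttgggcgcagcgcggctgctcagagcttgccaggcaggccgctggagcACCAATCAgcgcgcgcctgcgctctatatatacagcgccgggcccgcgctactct
Hist1h1d, chr13:23554782-23555031, plus strand: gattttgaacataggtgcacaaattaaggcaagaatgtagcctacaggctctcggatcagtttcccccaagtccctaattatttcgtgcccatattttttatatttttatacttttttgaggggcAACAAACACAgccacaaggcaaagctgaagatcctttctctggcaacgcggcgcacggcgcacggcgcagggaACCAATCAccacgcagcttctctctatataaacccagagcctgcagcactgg
Hist1h1e, chr13:23622559-23622808, minus strand: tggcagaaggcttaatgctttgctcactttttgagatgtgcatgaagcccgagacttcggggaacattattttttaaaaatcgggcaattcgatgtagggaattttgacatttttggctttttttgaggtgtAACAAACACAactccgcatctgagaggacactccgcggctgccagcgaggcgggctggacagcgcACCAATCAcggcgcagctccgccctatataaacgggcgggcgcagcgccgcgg

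Counted from the start, the first base of AACAAACACA lay at -115 in Hist1h1c, -125 in Hist1h1d and -118 in Hist1h1e. The first base of ACCAATCA lay at -55, -52 and -53. Both motifs were searched on both strands and do not overlap each other. AACAAACACA occurred in 71 of 32851 RefSeq windows of the same length (0.216%) and ACCAATCA in 645 (1.96%). Among the other H1 genes, Hist1h1b held both (at -120 and -54), Hist1h1a held ACCAATCA alone (at -57), and H1f0 held neither within this window. The shorter AAACACA letters were not searched for on their own, so their presence in Hist1h1a and H1f0 was not tested.

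Levels are given as CPM, the counts divided by the library size after trimmed-mean (TMM) scaling. Hist1h1c (ENSMUSG00000036181, chromosome 13, 23738808 to 23740367) stood at 209 and 228 CPM in the 2 convR females and at 159 and 213 CPM in the 2 convR males. In GF it stood at 62.0 and 77.6 CPM in females and at 88.5 and 78.2 CPM in males, a log2 fold change of -1.41 ± 0.15 (SE, edgeR adjusted p = 0.00497). All 4 GF libraries were below all 4 convR libraries. The 4 convR libraries at ZT18 were also above each of the 20 convR libraries of the other times, which ran from 31.6 to 137 CPM.

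Hist1h1d (chromosome 13, 23553262 to 23560686) stood at 40.2 and 35.3 CPM in convR females and at 27.0 and 32.0 CPM in convR males. Its GF values were 4.37 and 9.26 CPM in females and 5.44 and 5.41 CPM in males, a log2 fold change of -2.46 ± 0.20 (SE, edgeR adjusted p = 0.00188). The groups did not overlap, and the lowest convR library, at 27.0 CPM, was well above the highest GF library, at 9.26 CPM. Hist1h1e (chromosome 13, 23620629 to 23622558) stood at 83.0 and 88.0 CPM in convR females and at 77.4 and 90.5 CPM in convR males. In GF females it stood at 42.1 and 42.4 CPM and in GF males at 38.0 and 41.1 CPM, a log2 fold change of -1.06 ± 0.08 (SE, edgeR adjusted p = 0.00154). The 4 GF libraries of Hist1h1e were within a few CPM of each other.

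The calls of Hist1h1c, Hist1h1d and Hist1h1e at ZT18 held when each of the 8 libraries was left out in turn. The 2 lower-abundance cluster genes Hist1h1a and Hist1h1b also fell, with log2 fold changes of -1.30 ± 0.27 and -1.95 ± 0.26 (SE, edgeR adjusted p = 0.0356 and 0.011). H1f0 had a log2 fold change of -0.33 ± 0.09 and did not pass (edgeR adjusted p = 0.0909), with 126 to 177 CPM in convR and 107 to 141 CPM in GF. In all, 10 H1 genes are in the tables, 6 passed the filter on low counts, and 5 were called lower and 0 higher, where 2.02% of all 16486 genes tested were called lower. Of the 4 that were not tested in the fit to 8 libraries, H1foo had no count in any library, H1fnt had none at ZT18, Hist1h1t reached at most 0.0793 CPM at ZT18, and H1fx stood at 0.177 to 0.274 CPM in convR and at 0 to 0.0292 CPM in GF. In the fit to all 48 libraries H1fx passed the filter and was called lower at ZT18 (edgeR adjusted p = 0.000278). The number of H1 genes called lower ranged from 3 (without GF male replicate 1) to 7 (without GF female replicate 1). The histone family was singled out after values had been seen, and reads shared between its near-identical members make the split among them uncertain.

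Across the day the 3 genes took different courses in the 2 groups, but only Hist1h1c stood in convR at ZT18 above all other times. The convR libraries of Hist1h1d ran from 27.0 to 40.2 CPM at ZT18 and from 6.21 to 36.5 CPM at the other times. Those of Hist1h1e ran from 77.4 to 90.5 CPM and from 26.4 to 96.4 CPM, so both overlapped. In convR, Hist1h1c averaged 43.3 ± 10.3 CPM at ZT10 and 55.4 ± 25.9 CPM at ZT14, then 203 ± 30.2 CPM at ZT18 and 111 ± 19.3 CPM at ZT22 (SD, n = 4). In GF it averaged 99.5 ± 22.2, 86.0 ± 30.8, 76.6 ± 10.9 and 70.5 ± 15.5 CPM at the same times. Hist1h1c was thus higher in GF than in convR at ZT10 (log2 fold change 1.22, edgeR adjusted p = 0.0191) and lower at ZT18. Hist1h1e likewise rose at ZT10 (1.16, edgeR adjusted p = 0.002), where Hist1h1d had a log2 fold change of 1.21 that did not pass (edgeR adjusted p = 0.0823). At ZT22 Hist1h1d was still lower in GF (-1.22, edgeR adjusted p = 0.0487), Hist1h1c had -0.64 (edgeR adjusted p = 0.189), and Hist1h1e had -0.01.

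**Figure D1:**
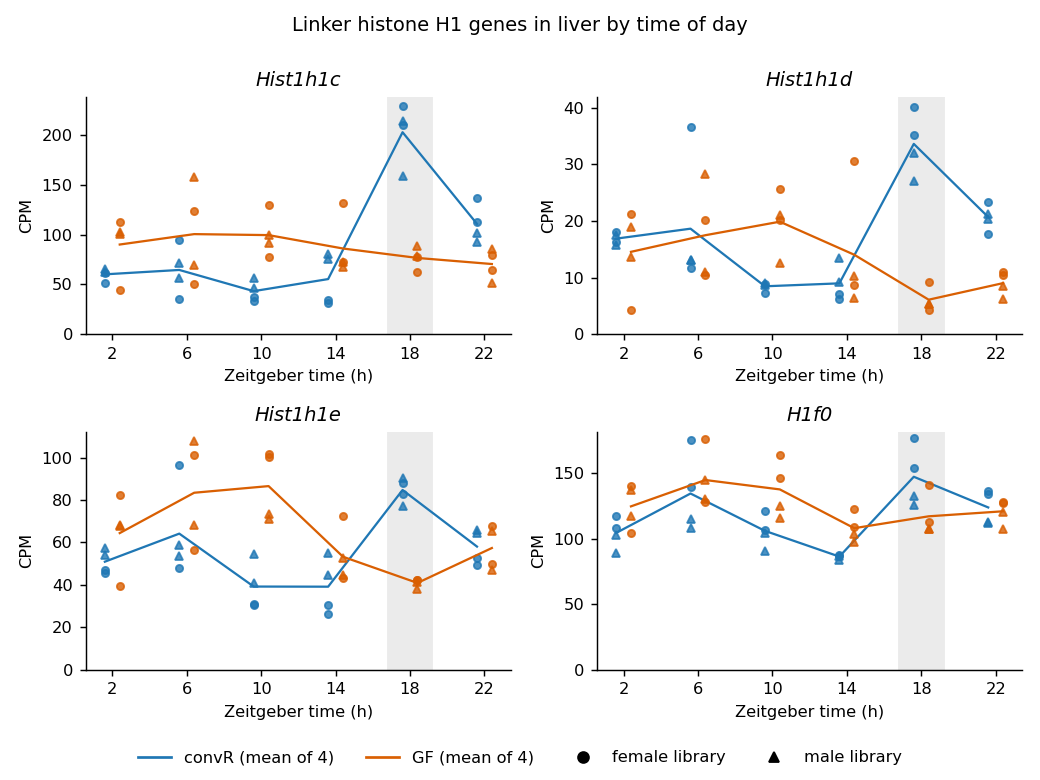
CPM (y axis, linear, from 0) of 4 linker histone genes against zeitgeber time in hours (x axis) in convR (blue) and GF (orange) liver; circles are female libraries, triangles male libraries and lines the mean of 4, with the groups drawn slightly apart and ZT18 shaded. For Hist1h1c, Hist1h1d and Hist1h1e the 4 convR points at ZT18 sit above the 4 GF points, while H1f0 overlaps (107 to 141 CPM in GF against 126 to 177 CPM in convR).

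The difference between times was tested directly, as the log2 fold change at ZT18 minus its mean at the other 5 times in a fit to all 48 libraries. That difference was -2.51 ± 0.42 for Hist1h1d, -1.91 ± 0.32 for Hist1h1c and -1.53 ± 0.23 for Hist1h1e (SE, edgeR adjusted p = 0.0046, 0.00431 and 0.00124). It was smaller for H1f0, at -0.53 ± 0.11 (edgeR adjusted p = 0.0165). So 4 of 7 H1 genes tested in that fit passed as lower and 0 as higher, against 0.576% of all 17867 genes tested that passed as lower. The calls of Hist1h1c, Hist1h1d and Hist1h1e held without any 1 of the 8 ZT18 libraries, and that of H1f0 was lost without convR female replicate 2, convR male replicate 2 or either GF male library. Set against ZT14 and ZT22 alone, the differences were -2.13, -1.45 and -1.29 for Hist1h1d, Hist1h1c and Hist1h1e and did not pass (edgeR adjusted p = 0.11, 0.131 and 0.0548). The median GC content of genes with a lowered effect at ZT18 was 53.4%, that of genes with a raised effect 44.0%, and that of all genes tested 49.5%. The median exon length was 5655 bases for genes with a raised effect, 3927 for a lowered effect and 3255 for all genes tested. With an offset from GC content and exon length the 3 differences were -2.67, -1.84 and -1.52 (edgeR adjusted p = 0.00529, 0.00318 and 0.000871). Some other genes lost their call with that offset, as given below.

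Some of the core histone genes, which encode the proteins of the nucleosome itself, also fell in GF at ZT18. Of 51 core genes tested, 16 were called lower and 0 higher, where 2.02% of all genes tested were called lower, and 35 did not pass. Their median log2 fold change was -0.88, where the median of all genes tested was -0.01. In the fit to all 48 libraries the core median was -0.88 at ZT18 and -0.82 at ZT22, and it was also negative at the other times, from -0.06 at ZT10 to -0.47 at ZT14. Hist1h4f averaged 5.55 ± 1.52 CPM over the convR libraries and 1.82 ± 0.757 CPM over the GF libraries (SD, n = 4), a log2 fold change of -1.61 ± 0.22 (SE, edgeR adjusted p = 0.0114). Hist1h4m, the named gene with the largest decrease, had 153 and 111 reads in convR females and 95 and 96 in convR males, against 1 and 0 in GF females and 1 and 10 in GF males. The pooled ratio of convR to GF for Hist1h4m was 42.6 with a 95% exact counting interval of 24.1 to 83.0, which covers counting error only. GF male replicate 2 held 10 of the 12 GF reads, and the fitted log2 fold change of Hist1h4m was -5.18 with that library and -7.12 without it. Its call held without any 1 of the 8 libraries. In the fit to all 48 libraries the log2 fold change of Hist1h4m was -5.91 at ZT18. It ran from -4.02 (ZT14) to -5.21 (ZT22) at the other times. The difference of Hist1h4m between ZT18 and the other times was -1.24 and did not pass (edgeR adjusted p = 0.538). Hist1h3e went from 11.1 ± 1.40 to 6.56 ± 0.952 CPM (SD, n = 4), a log2 fold change of -0.76 ± 0.14 (SE, edgeR adjusted p = 0.0259). The count of core genes called lower was 2 without GF male replicate 1, 4 without convR male replicate 1, 20 without GF female replicate 1 and 26 without GF female replicate 2. In the 48-library fit, 1 of 53 core genes (Hist1h4f) passed the test of ZT18 against the other times. None of 8 tested genes for replacement variants, which are made outside S phase, was called by edgeR at ZT18 in the fit to the 8 libraries (1 at an unadjusted p under 0.05, 0 by DESeq2), and their median log2 fold change was -0.02. In males alone, in the fit to all 48 libraries, H2afj and H2afz were called lower (-0.56 and -0.49, edgeR adjusted p = 0.0388 and 0.0376), where 3.55% of all genes were.

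Most histone genes of this cluster are expressed in S phase, so the proliferation list was read beside them. Of its 18 tested genes, Birc5, a regulator of chromosome segregation and cell survival, was called lower and 0 were called higher (8 had an unadjusted p under 0.05). By comparison, 2.02% of all genes tested were called lower. Birc5 stood at 1.19 to 1.89 CPM in convR and 0.467 to 0.713 CPM in GF, a log2 fold change of -1.42 ± 0.21 (SE, edgeR adjusted p = 0.0148). The median of the list was -0.88 at ZT18 and was also negative at each other time, from -0.59 at ZT2 to -1.05 at ZT22. The list's median difference between ZT18 and the other times was 0.02, and 0 of 19 genes passed that test (1 at an unadjusted p under 0.05, 0 by DESeq2). The count of proliferation genes called lower at ZT18 was 0 without convR male replicate 2 and 7 without GF female replicate 2. The part of dividing cells in the histone values was not tested. In whole liver, fewer cells of a type and less RNA per cell cannot be told apart.

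Across all genes, 517 of 16486 (3.14%) were called at ZT18 by edgeR's quasi-likelihood test at an adjusted p threshold of 0.05. Of these, 184 (1.12%) rose in GF and 333 (2.02%) fell. Total counts of the 8 libraries ran from 36823029 to 51294708. The replicates of GF females at ZT18 lay furthest apart, with a median absolute log2 difference of 0.323 between them, against 0.150 to 0.160 in the other 3 groups of that time. Without GF female replicate 1, 1744 genes were called, and without replicate 2, 1069, while leaving out any 1 of the other 6 libraries gave 30 to 208. The fit to all 48 libraries, which estimates the spread from every time, called 1355 genes at ZT18 (7.58%). Scaling by library size alone moved the median over all genes tested from -0.01 to -0.19 in log2 fold change, and fold changes here are relative to the TMM scale. The convR male replicate 1 library held pancreatic acinar marker RNA at a summed 360 CPM, where the other 7 held 4.64 to 12.9 CPM, so pancreatic genes are not discussed.

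**Figure D2:**
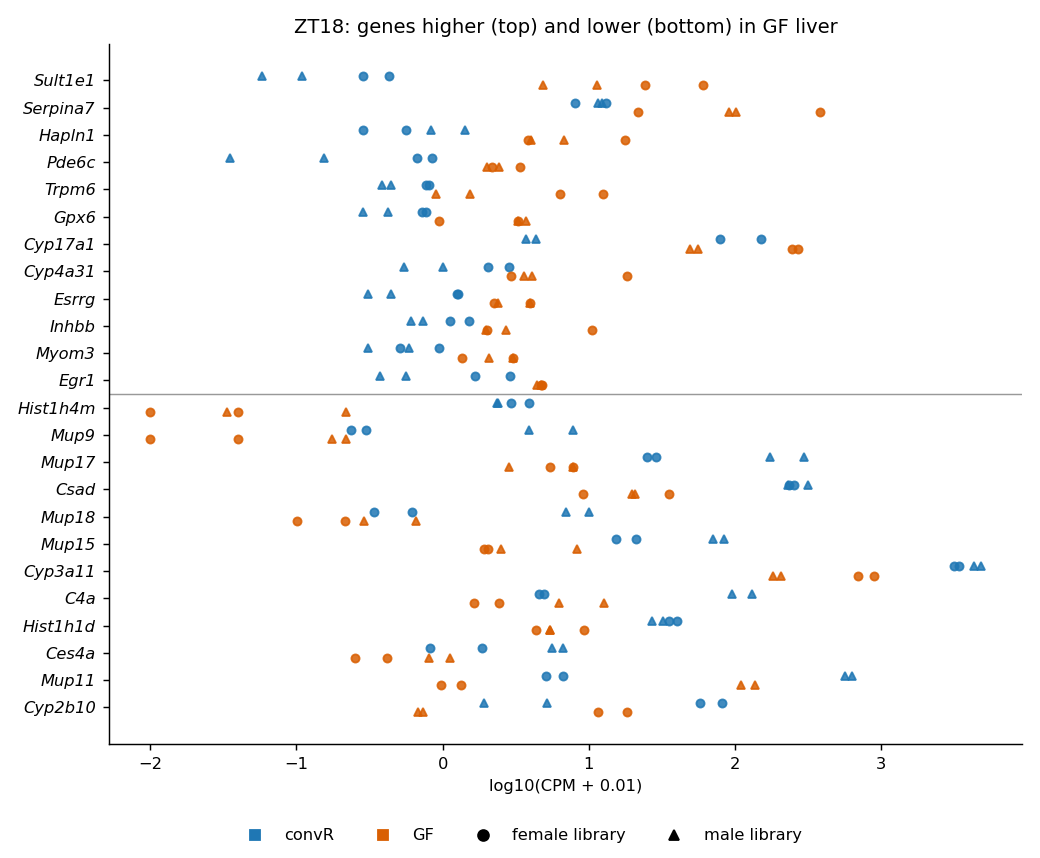
Levels at ZT18 as log10(CPM + 0.01) on the x axis for the 12 genes with the largest increases (above the line) and the 12 with the largest decreases (below) in GF liver; each point is 1 library, blue for convR and orange for GF, circles for females and triangles for males. Within each sex the GF and convR points of every gene are separated, by the rule that chose them, and the distance between the sexes is often as large as that between the groups, as for Mup11 and Cyp17a1.

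The largest increase among the genes named was in a conjugating enzyme. Sult1e1, the estrogen sulfotransferase, was at 0.278 and 0.423 CPM in convR females and at 0.0998 and 0.0485 CPM in convR males. In GF females it reached 60.3 and 24.1 CPM and in GF males 11.3 and 4.87 CPM, a log2 fold change of 6.86 ± 0.49 (SE, edgeR adjusted p = 0.00134). The groups were far apart, and within GF each female library was above each male library. In the fit to all 48 libraries the log2 fold change of Sult1e1 was 6.81 at ZT18. It ran from 4.91 (ZT22) to 6.79 (ZT10) at the other times. The difference of Sult1e1 between ZT18 and the other times was 0.95 and did not pass (edgeR adjusted p = 0.867). The convR libraries held 2 to 16 reads of Sult1e1, and the pooled ratio of GF to convR was 95.6 with a 95% exact counting interval of 67.9 to 139, which covers counting error only.

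Cyp3a11, a major drug-metabolising cytochrome P450 of mouse liver, stood at 3157 and 3407 CPM in convR females and at 4323 and 4793 CPM in convR males. It was at 695 and 893 CPM in GF females and at 205 and 181 CPM in GF males, a log2 fold change of -3.31 ± 0.49 (SE, edgeR adjusted p = 0.014). The groups did not overlap, and the order of the sexes differed, with males higher in convR and lower in GF. In the fit to all 48 libraries the log2 fold change of Cyp3a11 was -3.30 at ZT18. It ran from -2.83 (ZT22) to -3.49 (ZT10) at the other times. The difference of Cyp3a11 between ZT18 and the other times was -0.05 and did not pass (edgeR adjusted p = 0.965). CAR and PXR are receptors for foreign compounds, and 27 of their target genes were measured. Of these, 3 were called lower (Cyp3a11, Cyp2b10 and the carboxylesterase Ces2a) and 1 higher (Sult1e1), and the list's median was 0.20. Over all genes tested, 2.02% were called lower and 1.12% higher. Ces2a went from 383 ± 54.3 to 153 ± 37.4 CPM (SD, n = 4), a log2 fold change of -1.33 ± 0.15 (SE, edgeR adjusted p = 0.0064). Cyp2b10, the classical CAR target, was at 81.0 and 57.8 CPM in convR females and 11.5 and 18.3 CPM in GF females, and at 1.92 and 5.19 CPM in convR males and 0.729 and 0.672 CPM in GF males (log2 fold change -2.26 ± 0.29, SE, edgeR adjusted p = 0.011). Without either GF male library, Cyp3a11 and Cyp2b10 missed the threshold (highest adjusted p = 0.0697 and 0.0606), Cyp2b10 also did so in the fit to all 48 libraries (edgeR adjusted p = 0.0659), and the list gave 1 gene called lower without either. Without GF female replicate 1, 8 genes of the list were called higher. Reads of the Cyp2b, Cyp3a and Cyp4a families may be split among paralogs.

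Sulfur amino acid enzymes moved in opposite directions. Csad, which makes the taurine precursor hypotaurine, stood at 235 and 254 CPM in convR females and 314 and 229 CPM in convR males. Its GF values were 35.6 and 9.08 CPM in females and 20.8 and 19.7 CPM in males, a log2 fold change of -3.61 ± 0.36 (SE, edgeR adjusted p = 0.00408). The groups were far apart and the sexes overlapped within each group. In the fit to all 48 libraries the log2 fold change of Csad was -3.60 at ZT18. It ran from -2.52 (ZT10) to -3.69 (ZT22) at the other times. The difference of Csad between ZT18 and the other times was -0.36 and did not pass (edgeR adjusted p = 0.752). Of 16 measured genes of taurine and sulfur amino acid metabolism, 4 rose while Csad fell. Over all genes tested, 1.12% rose and 2.02% fell. The list's median in the fit to all 48 libraries was 0.27 at ZT18. At the other times it ran from 0.11 (ZT6) to 0.50 (ZT14). Cth, which makes cysteine, went from 332 ± 39.1 to 676 ± 240.2 CPM (log2 fold change 1.02, edgeR adjusted p = 0.0479), and Mat1a, the liver enzyme that makes S-adenosylmethionine, from 3120 ± 1183 to 6414 ± 1788 CPM (1.11, edgeR adjusted p = 0.0351), both as SD with n = 4. Bhmt and Bhmt2, which methylate homocysteine, had log2 fold changes of 1.10 and 0.57 (edgeR adjusted p = 0.032 and 0.017). Between 0 (without convR male replicate 1) and 8 (without GF female replicate 1) genes of the list rose when a library was left out, while Csad was called lower each time.

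Of 23 measured genes of amino acid breakdown and the urea cycle, 5 rose at ZT18 and 1 fell, where 1.12% of all genes tested rose and 2.02% fell. Those that rose included Cps1 and Ass1 of the urea cycle, Hpd of tyrosine breakdown, and Oat, which handles ornithine. Cps1 went from 6458 ± 498 to 10205 ± 1057 CPM (SD, n = 4; 0.65 ± 0.11, SE, edgeR adjusted p = 0.0192). Leaving out 1 library gave 0 (without convR male replicate 1) to 7 (without GF female replicate 1) genes called higher.

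The gene that fell was the serine dehydratase Sds, at 187 and 192 CPM in convR females and 130 and 132 CPM in convR males, against 108 and 97.8 CPM in GF females and 80.0 and 94.7 CPM in GF males (log2 fold change -0.74 ± 0.10, SE, edgeR adjusted p = 0.011). Sds in all 4 GF libraries was below all 4 convR libraries at ZT18. At ZT14, Sds had been at 292 to 366 CPM in GF and 162 to 221 CPM in convR, so its order was the opposite. The difference of Sds between ZT18 and the other times was -1.21 ± 0.26 (SE, edgeR adjusted p = 0.0179), and it did not pass without either GF male library, either convR male library or convR female replicate 2.

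Got1, the cytosolic aspartate aminotransferase, also had a different effect at ZT18. It stood at 179 to 238 CPM in GF and 129 to 244 CPM in convR, so the groups overlapped (log2 fold change 0.31, edgeR adjusted p = 0.354). At the other 5 times the 20 GF libraries held 267 to 759 CPM of Got1 and the 20 convR libraries 98.1 to 336 CPM. The 4 GF libraries at ZT18 were therefore below each of the other 20 GF libraries. The difference of the effect from the other times was -1.07 ± 0.27 (SE, edgeR adjusted p = 0.0495), and it missed the threshold without any 1 of the 8 ZT18 libraries (highest adjusted p = 0.153).

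Sex-biased liver genes formed the next group. Of 27 measured male-biased genes, 9 were called lower and 0 higher in GF, where 2.02% of all genes tested were called lower. All 27 had a negative log2 fold change, and the median was -1.02. In the fit to all 48 libraries the list's median was -0.96 at ZT18. It was also negative at each other time, from -0.13 at ZT2 to -1.07 at ZT6. By edgeR 0 of 27 genes passed the test of ZT18 against the other times (2 at an unadjusted p under 0.05, 0 by DESeq2). Mup15, a major urinary protein gene, stood at 20.9 and 15.4 CPM in convR females and 70.5 and 84.3 CPM in convR males. It was at 1.90 and 2.04 CPM in GF females and at 2.52 and 8.25 CPM in GF males, a log2 fold change of -3.57 ± 0.34 (SE, edgeR adjusted p = 0.00287). The GF libraries of both sexes were below the convR libraries of both sexes. Mup9, Mup17 and Mup18 had log2 fold changes of -4.85, -3.77 and -3.59 (edgeR adjusted p = 0.00239, 0.0331 and 0.0123). Mup9 had 9 and 11 reads in convR females and 156 and 321 in convR males, against 1 and 0 in GF females and 7 and 10 in GF males. Its pooled ratio of convR to GF was 31.0 with a 95% exact counting interval of 19.4 to 52.7, which covers counting error only. Mup18 had 13 and 23 reads in convR females and 3 and 7 in GF females.

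Mup11, which is not in that list, fell in both sexes with males far higher than females, from 629 and 565 CPM to 109 and 137 CPM in males and from 5.12 and 6.63 CPM to 1.33 and 0.964 CPM in females (log2 fold change -2.31 ± 0.14, SE, edgeR adjusted p = 0.000456). The carboxylesterase gene Ces4a fell by 2.44 ± 0.30 and the complement gene C4a by 2.61 ± 0.48 on the log2 scale (SE, edgeR adjusted p = 0.00927 and 0.0277). The Mup genes are near-identical copies, so values of single members are uncertain. The count of male-biased genes called lower was 2 without GF male replicate 1, 4 without convR male replicate 1, 14 without GF female replicate 2 and 17 without GF female replicate 1. Mup9, Mup11 and Mup15 stayed called without any 1 of the 8 libraries, but Mup9 did not pass at ZT18 in the fit to all 48 libraries (edgeR adjusted p = 0.0676). Mup17, Mup18, Ces4a and C4a were not called without either GF male library, and without GF male replicate 1 the log2 fold changes of Mup17 and Mup18 were -3.05 and -2.99.

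Of 30 measured female-biased genes, 3 were called higher and 0 lower, where 1.12% of all genes tested were called higher, and the median was 0.96. In the fit to all 48 libraries the list's median was 0.99 at ZT18. It was also positive at each other time, from 0.04 at ZT2 to 0.64 at ZT6. By edgeR 0 of 30 genes passed the test of ZT18 against the other times (3 at an unadjusted p under 0.05, 1 by DESeq2). Cyp17a1, a steroid hydroxylase and lyase, went from 150 and 79.3 CPM to 246 and 270 CPM in females and from 4.37 and 3.73 CPM to 55.7 and 49.5 CPM in males (log2 fold change 2.36 ± 0.49, SE, edgeR adjusted p = 0.0382). GF males remained below convR females. Cyp2a22 rose by 0.88 ± 0.19 (SE, edgeR adjusted p = 0.0443), and Cyp3a41b rests on females alone, with 1.99 and 2.35 CPM in convR and 12.0 and 27.2 CPM in GF, since males held 0 to 3 reads. The count of female-biased genes called higher ranged from 0 (without convR male replicate 1) to 10 (without GF female replicate 1), and Cyp17a1 was lost without any 1 of the 4 male libraries or convR female replicate 2.

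The other genes with large increases at ZT18 have varied roles. Serpina7, the thyroxine-binding globulin gene, went from 8.03 and 13.0 CPM to 382 and 21.8 CPM in females and from 11.6 and 12.3 CPM to 90.5 and 101 CPM in males (log2 fold change 3.62 ± 0.73, SE, edgeR adjusted p = 0.0348). Its GF values spread widely, with GF female replicate 1 highest and replicate 2 lowest, and the log2 fold change of Serpina7 was 2.30 without replicate 1. The magnesium channel gene Trpm6 had a log2 fold change of 2.78 ± 0.44 and the matrix-linker gene Hapln1 of 3.33 ± 0.63 (SE, edgeR adjusted p = 0.0167 and 0.0301). Further increases were in the cone phosphodiesterase Pde6c (2.80), the glutathione peroxidase Gpx6 (2.37), the fatty acid hydroxylase Cyp4a31 (2.20), the inhibin and activin subunit Inhbb (2.05), the muscle M-band gene Myom3 (2.03) and the immediate early factor Egr1 (2.02), with edgeR adjusted p from 0.0238 to 0.0482. Egr1 stood at 4.40 to 4.79 CPM in the 4 GF libraries and 0.364 to 2.88 CPM in convR, and it did not pass in the fit to all 48 libraries. Without GF female replicate 1 the log2 fold changes of Hapln1, Cyp4a31 and Inhbb were 2.59, 1.46 and 1.31. Each of these genes lost its call without 1 or more of the 8 libraries, from 3 of the 8 for Trpm6 to 7 of the 8 for Gpx6 and Cyp4a31.

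Pathways that follow feeding and the clock were read next, where 1.12% of all genes tested were called higher and 2.02% lower at ZT18. Of 18 measured core clock genes, 0 were called by edgeR (4 at an unadjusted p under 0.05, 1 by DESeq2), and the median was -0.01. Cry1, a repressor of the clock, stood at 38.2 to 49.1 CPM in convR and 53.3 to 67.5 CPM in GF, without overlap, but did not pass (log2 fold change 0.46 ± 0.11, SE, edgeR adjusted p = 0.0586). Without GF female replicate 1, 3 clock genes were called higher and 1 lower. Of 20 genes of the fasting, insulin and glucose response, the glucose transporter Slc2a2 (0.53, edgeR adjusted p = 0.0148) and the liver glycogen synthase Gys2 (0.77, edgeR adjusted p = 0.0264) rose and 0 fell. Of 28 PPARα and fatty acid oxidation genes, Acadl (0.43) and Cyp4a31 rose and 0 fell, and of 15 bile acid transport and signalling genes, the uptake carrier Slc10a1 alone was called (0.56, edgeR adjusted p = 0.0318). Among 14 bile acid synthesis genes, 0 were called by edgeR (3 at an unadjusted p under 0.05, 2 by DESeq2). Without convR male replicate 1, 0 genes of each of these lists were called by edgeR.

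The labelled tissue was checked against marker genes. All 12 hepatocyte markers were detected. Their summed levels ran from 102210 to 129500 CPM in convR and from 143850 to 189680 CPM in GF, without overlap. Among these markers, 4 (Alb, Ahsg, Trf and Cyp2e1) were called higher and 0 lower, where 1.12% and 2.02% of all genes tested were. Summed Kupffer cell markers ran from 528 to 852 CPM in convR and from 449 to 824 CPM in GF, and those of sinusoidal endothelium from 506 to 582 and from 496 to 589 CPM, both with overlap. Summed markers of T and NK cells (2.92 to 6.41 CPM) and of neutrophils and monocytes (2.91 to 7.27 CPM) were low in all 8 libraries. Of the 3 erythroid genes tested, the globin Hba-a1 was called higher, at 4.79 to 13.1 CPM in convR and 14.9 to 47.6 CPM in GF, and this count ran from 0 to 2 when 1 library was left out. The count of hepatocyte markers called higher ran from 0 (without convR male replicate 2) to 5. The higher hepatocyte sum in GF stands beside the increases above, and its part in them was not tested.

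The comparison of ZT18 with the other times called 187 of 17867 genes (1.05%), of which 84 (0.47%) had a raised and 103 (0.576%) a lowered GF effect at ZT18. For 134 of all genes (0.75%) the difference was called and the effect at ZT18 was larger in size than at each other time. The genes below were taken from those 134 by the size of their difference, so an effect that is largest at ZT18 is part of the rule and not a finding. An effect larger at ZT18 than at each other time, with no test, was held by 3361 genes (18.8%). Of genes called at a given time with the largest effect there, ZT18 had 938 (5.25%), ZT6 873 (4.89%), ZT22 775 (4.34%), ZT14 708 (3.96%), ZT2 275 (1.54%) and ZT10 233 (1.3%). The count of 187 fell to between 16 and 66 without any 1 of the convR or GF male libraries of ZT18, and it was 219 and 352 without GF female replicates 1 and 2. Against ZT14 and ZT22 alone, 4 genes passed, among them Ikbkg and Hps4. With the offset from GC content and exon length, 154 genes passed, 52 raised and 102 lowered, and 106 of them were among the 187. Of the genes named here, Got1, Acsl3, Heph, Itga8 and Mcm10 then missed the threshold (edgeR adjusted p from 0.0589 to 0.092).

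Libraries outside ZT18 also enter this comparison. Nnt, a mitochondrial transhydrogenase gene that carries a known deletion in the C57BL/6J substrain, stood at 163 to 184 CPM in GF female replicate 2 at ZT2, ZT6 and ZT10 and at 42.6 to 84.7 CPM in the other 45 libraries. It ran from 62.6 to 84.7 CPM in GF and from 52.1 to 59.9 CPM in convR at ZT18. These 3 libraries thus stand apart in a gene that bears on the strain label, and the strain was not tested. Without them, 291 genes were called for ZT18 against the other times in place of 187, of which 178 were among the 187, and 78 for females against males in place of 33. Of the genes named below, Heph and Ribc1 lost their call without them.

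Ikbkg (chromosome X, 74393290 to 74453854), which encodes NEMO, the regulatory subunit of the kinase that activates NF-kappa B, had the raised effect with the lowest adjusted p among those named. At ZT18 it stood at 59.2 and 66.4 CPM in convR females and 85.8 and 70.5 CPM in convR males, against 125 and 89.9 CPM in GF females and 110 and 119 CPM in GF males. All 4 GF libraries were above all 4 convR libraries. Its log2 fold change was 0.66 ± 0.12 at ZT18 (SE, edgeR adjusted p = 0.0282), was negative at ZT2, ZT6, ZT10 and ZT14 (-0.07 to -0.42) and was 0.27 at ZT22. The difference between ZT18 and the other times was 0.84 ± 0.12 (SE, edgeR adjusted p = 0.00124), and it was 0.74 against ZT14 and ZT22 alone (edgeR adjusted p = 0.0466).

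Hps4 (chromosome 5, 112343083 to 112378414), a subunit of a complex that builds lysosome-related organelles, had a lowered effect. It stood at 11.0 and 13.0 CPM in convR females and 16.4 and 16.2 CPM in convR males, against 9.62 and 7.77 CPM in GF females and 8.89 and 9.04 CPM in GF males. GF was lower in each sex and the groups did not overlap. Its log2 fold change was -0.67 ± 0.12 at ZT18 (SE, edgeR adjusted p = 0.0264) and lay between -0.01 and 0.50 at the other times, a difference of -0.92 ± 0.15 (SE, edgeR adjusted p = 0.00246). Fbxo44, which directs a ubiquitin ligase to its targets, stood at 3.76 to 4.59 CPM in convR and 1.96 to 2.46 CPM in GF at ZT18, a difference from the other times of -0.92 ± 0.16 (SE, edgeR adjusted p = 0.00707). At ZT18 Fbxo44 in all 4 convR libraries was above the 20 convR libraries of the other times (1.49 to 3.62 CPM). Ikbkg, Hps4 and Fbxo44 stayed called without any 1 of the 8 libraries.

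Esrrg, an orphan nuclear receptor that acts on energy metabolism, had the largest raised effect among the genes named. It was at 1.24 and 1.27 CPM in convR females and 0.299 and 0.436 CPM in convR males, and at 3.95 and 2.22 CPM in GF females and 3.93 and 2.39 CPM in GF males. The groups did not overlap, and the sexes were close in GF. Its log2 fold change was 2.08 ± 0.39 at ZT18 (SE, edgeR adjusted p = 0.0282), and the difference from the other times was 1.66 ± 0.36 (SE, edgeR adjusted p = 0.0219). That difference was lost without any 1 of 6 libraries, all but GF male replicate 2 and GF female replicate 2.

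Among the other raised effects were those of the scramblase-related gene Xkr9 (1.10 ± 0.20), the kinase Stk38l (0.81 ± 0.15), the acyl-CoA synthetase Acsl3 (0.79 ± 0.20), the recycling endosome gene Rab11fip2 (0.76 ± 0.18), the copper oxidase Heph (0.70 ± 0.18), the lamin B receptor Lbr (0.60 ± 0.12) and the integrin Itga8 (0.58 ± 0.13), all as log2 differences ± SE with edgeR adjusted p of 0.0486 or below. Lbr, which tethers heterochromatin to the nuclear envelope and also reduces sterols, stood at 16.9 to 23.5 CPM in convR and 29.2 to 34.6 CPM in GF at ZT18. Gpam, which starts glycerolipid synthesis and belongs to the lipogenesis list, had a difference of 1.30 ± 0.27 (SE, edgeR adjusted p = 0.0176). It stood at 166 to 264 CPM in convR and at 181, 511, 586 and 699 CPM in GF, with GF female replicate 1 the low one, and was lost without 6 of the 8 libraries. Xkr9 and Stk38l were lost without convR male replicate 2, and Xkr9 also without convR female replicate 2. Acsl3, Rab11fip2, Heph, Lbr and Itga8 were lost without 4 to 8 of the 8. The effect at ZT18 itself was not called in the fit to the 8 libraries for Stk38l, Acsl3, Rab11fip2, Heph and Itga8 (edgeR adjusted p from 0.0524 to 0.235). The fit to all 48 libraries called it for each of them (0.0397 or below). In that fit Acsl3 had -0.11 in females and 1.67 in males, and Stk38l 0.05 and 1.20.

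Further lowered effects were in the uracil-DNA glycosylase Ung (-1.34 ± 0.27), Exd1 (-1.06 ± 0.25), Ribc1 (-1.004 ± 0.25), the replication factor Mcm10 (-0.92 ± 0.24) and the synaptotagmin-like gene Sytl1 (-0.87 ± 0.18), beside Hist1h4f (-1.54 ± 0.30), as log2 differences ± SE with edgeR adjusted p of 0.049 or below. Ung, which removes uracil from DNA, stood at 4.09 and 6.18 CPM in convR females and 6.54 and 7.27 CPM in convR males, and at 4.52 and 2.22 CPM in GF females and 1.74 and 1.87 CPM in GF males. Its groups overlapped only through GF female replicate 1. Mcm10, needed to start DNA replication, went from 13.6 and 16.7 CPM to 10.3 and 7.45 CPM in females and from 77.3 and 56.9 CPM to 14.6 and 19.9 CPM in males. All 6 of these genes lost the call without 4 or more of the 8 libraries. The effect at ZT18 itself was not called in the fit to the 8 libraries for Ung and Sytl1 (edgeR adjusted p = 0.0645 and 0.0838).

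**Figure D3:**
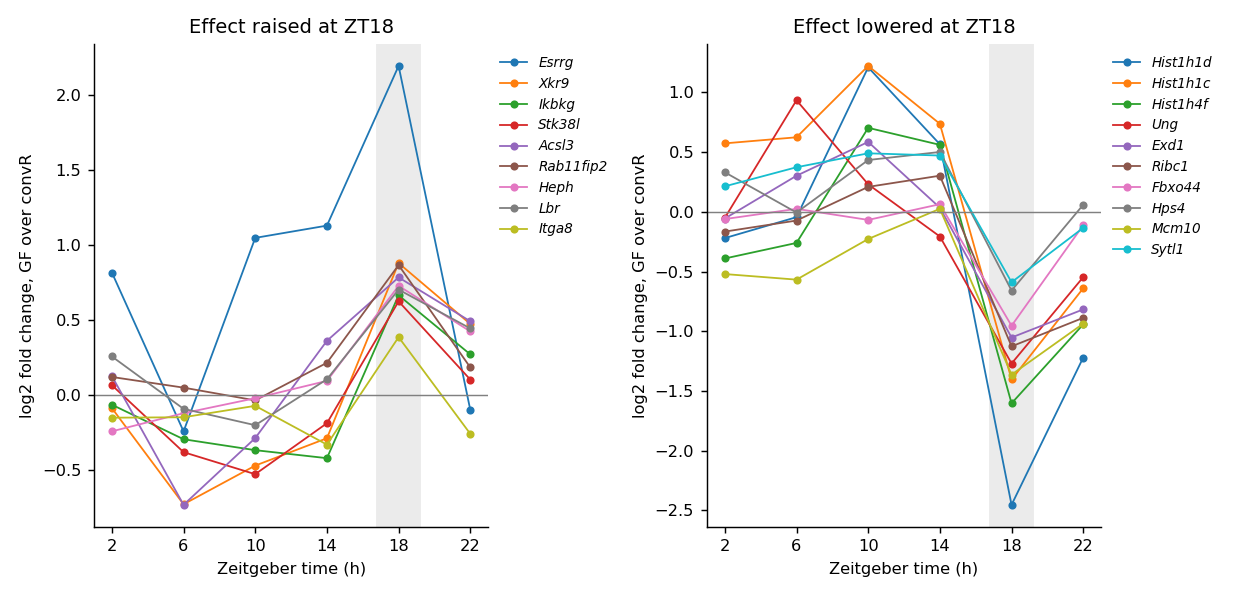
Log2 fold change of GF over convR (y axis) against zeitgeber time in hours (x axis), from the fit to all 48 libraries, for the genes named above with a raised effect (left) or a lowered effect (right) at ZT18, which is shaded; each line is 1 gene. Hist1h1d and Hist1h1c go from above 1 at ZT10 to -2.45 and -1.40 at ZT18.

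The effect at ZT18 also differed between female and male libraries for some genes. Sex and table coincide, so a difference by sex and one by table cannot be told apart. In the fit to all 48 libraries, 61 genes (0.341%) were called at ZT18 in females and 1286 (7.2%) in males, and 33 genes (0.185%) had an effect that differed between females and males, 18 (0.101%) with a higher value in females and 15 (0.084%) in males. A gene called in males and not in females is not thereby different. Leaving out 1 library gave 0 to 6 such genes, except for 526 without GF female replicate 2, and each of the genes named next lost its call without 4 or more of the 8 libraries.

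Hmgcs1, an early enzyme of sterol synthesis, stood at 387 and 264 CPM in convR females and 106 and 84.3 CPM in convR males, and at 203 and 382 CPM in GF females and 1158 and 1230 CPM in GF males. Both GF males were above all other libraries, while the females of the groups overlapped. The effect in females minus that in males was -3.80 ± 0.76 on the log2 scale (SE, edgeR adjusted p = 0.0346).

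Of 24 measured cholesterol synthesis genes, 21 were called higher and 0 lower in males at ZT18, where 3.64% of all genes were called higher, and the median log2 fold change was 2.01. In females 0 of 24 were called by edgeR (0 at an unadjusted p under 0.05), with a median of -0.05. The female median was 0.39 without GF female replicate 1 and -0.72 without replicate 2. In the fit that takes both sexes together, 0 of 24 were called by edgeR (11 at an unadjusted p under 0.05, 2 by DESeq2), and 20 were called without GF female replicate 1. Among males the count was 6 without convR male replicate 2, 12 without convR male replicate 1 or GF male replicate 2, and 16 without GF male replicate 1. The difference between the sexes itself passed for 3 of the 24. The median of the list over both sexes was 0.96 at ZT18, 0.77 at ZT14, 0.68 at ZT22 and -0.61 at ZT6.

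**Figure D4:**
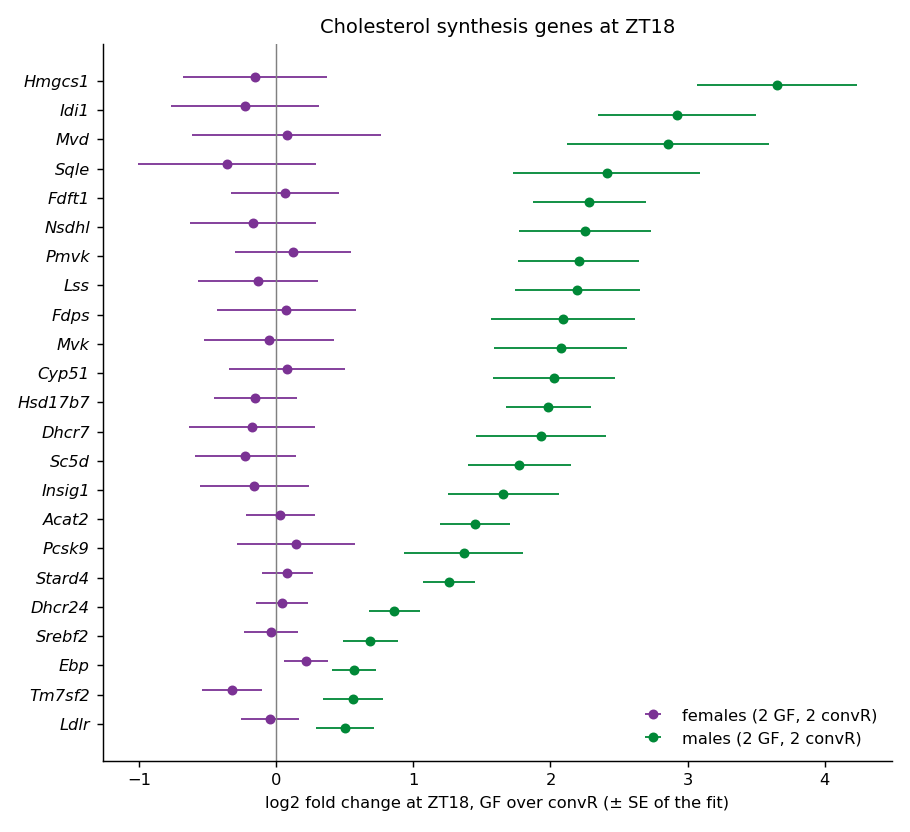
Log2 fold change of GF over convR at ZT18 (x axis) with SE of the fit for 23 of the 24 cholesterol synthesis genes (y axis), females in purple and males in green, each from 2 GF and 2 convR libraries. Female values lie around 0 and male values are all positive (medians over the 24 genes -0.05 and 2.01).

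Lipogenesis genes had a weaker pattern. Of 19 measured, 0 were called by edgeR in both sexes together (3 at an unadjusted p under 0.05, 2 by DESeq2). In males 5 were called higher, where 3.64% of all genes were. The list's medians were 0.51 in both sexes together and 1.05 in males. Over both sexes the median was -0.94 at ZT6 and 0.65 at ZT22. Without GF female replicate 1, 14 of 19 were called higher in both sexes together, and the median in females was 0.51 without that library and -0.97 without replicate 2.

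Cyp2b9, a female-biased cytochrome P450, had the largest difference between the sexes among the genes named. It had 16338 and 13888 reads in convR females, 10602 and 16517 in GF females, 2 and 1 in convR males, and 2707 and 519 in GF males. Both GF males were far above both convR males, while the females overlapped. The ratio of GF to convR was 864 in males with a 95% exact counting interval of 295 to 4190, and 0.901 in females with an interval of 0.887 to 0.916. These intervals cover counting error only, and the fitted difference of -9.82 (edgeR adjusted p = 0.0213) rests on 3 reads in convR males. It was -8.05 without GF male replicate 1 and -10.59 without GF male replicate 2.

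The remaining differences in that direction were in the transcription factor Nfe2 (-4.62 ± 0.92) and the actin nucleator Fmn1 (-2.64 ± 0.55). In the other direction were the ubiquitin ligase Syvn1 (2.83 ± 0.46), Cyp3a11 (2.51 ± 0.47), the kinase Aatk (1.95 ± 0.41), the interleukin-1 receptor Il1r1 (1.93 ± 0.41) and the glutathione transferase Gstp1 (1.78 ± 0.36), with edgeR adjusted p from 0.00977 to 0.0418 over these 7 genes and SE as the error. Gstp1 stood at 1215 and 1002 CPM in convR males and 262 and 328 CPM in GF males, and at 107 to 140 CPM in the 4 female libraries. Syvn1, which acts in the degradation of misfolded proteins of the endoplasmic reticulum, stood at 91.0 CPM in GF female replicate 1 and at 24.6 to 30.9 CPM in the other 3 GF libraries, and its difference without that library did not pass. The same GF library held Il1r1 at 71.1 CPM, against 23.1 to 25.9 CPM in the other 3. Without GF female replicate 1 the differences of Syvn1 and Il1r1 were 1.85 and 1.03, and without GF female replicate 2 those of Nfe2 and Fmn1 were -5.98 and -3.53.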

How the data were processed

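Gene counts came from 2 deposited tables of whole-number counts over exons, 1 per sex, which the authors made from reads of ribosome-depleted total RNA. STAR 2.4.0i and the mm10 build are named in the submitters' processing notes, while the counting tool, annotation and strand setting were not given in the sources used here. Overlapping and antisense genes can therefore share counts. The deposited exon length column (other unit, in bases) served only in an offset. Members and gene lists were chosen with earlier results of these data known.

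Counts were scaled by TMM over the libraries of each fit and filtered with edgeR 4.0.16 (filterByExpr, minimum 10 and total 15) in R 4.3.3. The ZT18 effect came from a quasi-likelihood fit to 8 libraries with the table as a block (5 residual degrees of freedom). Differences between times and sexes came from a fit to all 48 libraries (24 residual degrees of freedom). P-values were adjusted by Benjamini-Hochberg over every gene in the fit, and 0.05 was the threshold. Both fits were also run on simulated counts that gave every gene the same spread and both sexes the same change. That run does not show how the fits handle the unequal spread of these libraries. Printed CPM use 1 TMM scaling over 48 libraries.

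Genes named at ZT18 were the 12 highest and 12 lowest changes that passed, without overlap within either table and with an average log2 CPM no lower than 0. Applying that rule to TMM-scaled CPM was decided after values were seen and replaced Hbb-b1 by Cyp4a31. Genes named for time were the 10 highest and 10 lowest differences that passed with the largest effect at ZT18, and for sex the 5 highest and 5 lowest that passed. Predicted gene models, pseudogenes and features with an identifier only were counted and not named, and members of the lists could be named as well. Some results that these rules gave are not reported here. Replicate numbers were not treated as pairing the libraries. Of 12 GF and convR pairs of groups, 4 had a correlation of replicate differences above 0.1 (range -0.0908 to 0.177). A weak pairing cannot be told from none by these values. Alternatives were run with DESeq2 1.42.0, other scalings, filters, designs and reference times, and with each library left out.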

Additional observations from a re-analysis of the deposited data

Results flagged for a closer look

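In groups of 4 libraries at ZT18, 13 of 138 sets of values had 1 library far from the other 3. The limit used gives about 1 in 20 for 4 draws from 1 normal distribution. The sets here hold both sexes, and many are of genes picked for their effects, so that rate does not apply to them. Among the GF libraries, female replicate 1 stood apart for Gpx6 (0.935 CPM), Cyp4a31 (18.2 CPM), Inhbb (10.5 CPM), Ribc1 (0.663 CPM), Syvn1 (91.0 CPM) and Il1r1 (71.1 CPM). GF female replicate 2 stood apart for Hist1h4f (2.95 CPM), Sytl1 (2.89 CPM) and the summed stellate cell markers (721 CPM). GF male replicate 2 stood apart for Hist1h4m (0.210 CPM) and Mup15 (8.25 CPM), and GF male replicate 1 for the summed adipocyte markers (16.1 CPM). Among the convR libraries, male replicate 1 stood apart for the summed pancreatic acinar markers (360 CPM).

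The GF effect at ZT18 differed from its mean at the other 5 times, by the edgeR test of that difference, for the genes given here. On the log2 scale it was higher by 1.66 for Esrrg, 1.10 for Xkr9, 0.84 for Ikbkg, 0.81 for Stk38l, 0.79 for Acsl3, 0.76 for Rab11fip2, 0.70 for Heph, 0.60 for Lbr and 0.58 for Itga8. The difference was -2.51 for Hist1h1d, -1.91 for Hist1h1c, -1.54 for Hist1h4f, -1.34 for Ung, -1.06 for Exd1, -1.004 for Ribc1, -0.92 for Fbxo44, Hps4 and Mcm10, and -0.87 for Sytl1.

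The effect at ZT18 in females minus that in males passed the same kind of test for the genes given here. The log2 difference was 2.83 for Syvn1, 2.51 for Cyp3a11, 1.95 for Aatk, 1.93 for Il1r1 and 1.78 for Gstp1. It was -9.82 for Cyp2b9, -4.62 for Nfe2, -3.80 for Hmgcs1 and -2.64 for Fmn1.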

How the results depend on the processing

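The counts of called genes depended on the design and on single libraries. For the GF effect at ZT18 (517 genes), library size as the only scaling gave 1924 (5.77% of them higher, against 35.6%), no filter 792, DESeq2 1302, the means model of 4 groups 1003, no table block 58 and the fit to 48 libraries 1355. For ZT18 minus the other times (187), these were 292 with library size (7.53% higher, against 44.9%), 751 with no filter, 473 with DESeq2, 4 against ZT14 and ZT22, 47 and 417 with ZT10 or ZT22 out of the reference, and 291 without the 3 GF female libraries of high Nnt. For females minus males (33), they were 8 with library size, 643 with no filter, 195 with DESeq2, 9 with the means model and 78 without those 3 libraries. For a difference among any of the 6 times (780), no filter gave 2731. For genes called with the largest effect at ZT18 (938), library size gave 2042. Leaving out 5 libraries, chosen after seeing the data, gave 867, 1162, 2261 and 1680 for the last 4 comparisons in this order. A replicate block was left out of the main fits. It gave 79 genes for ZT18, 172 for ZT18 minus the other times and 37 for females minus males. For any time it gave 712, and for the largest effect at ZT18 it gave 976.

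Leaving out 1 library at a time gave 30 to 1744 genes for ZT18, 16 to 677 for ZT18 minus the other times, 0 to 526 for females minus males, 321 to 2739 for any time and 425 to 1240 for the largest effect at ZT18. Of the named genes, 7 of 24, 5 of 20 and 0 of 10 stayed called without any 1 of the ZT18 libraries, for ZT18, the other times and the sexes. Medians near 0 changed sign: with library size, the fasting list was -0.13, the PPARα list -0.031 and the immediate early list -0.17. The immediate early median was -0.0014 with the means model and ran from -0.090 (without GF female replicate 1) to 0.070 (without convR male replicate 2) with 1 library left out, among them -0.061 without convR female replicate 2. The cause was not tested. Depth limits genes with few reads in a group, such as Cyp2b9 with 2 and 1 reads in convR males.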
